A study of Sus scrofa with 23 samples.

Results

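Affected articular cartilage of the knee was set against affected articular cartilage of the elbow in pigs with osteochondrosis. The comparison takes every array labelled as affected: 4 arrays of the condylus medialis femoris, the medial femoral condyle, and 8 arrays of the medial part of the condylus humeri, the humeral condyle. These are 12 of the 23 arrays of the series. Arrays 5 and 6 of the affected humerus were the closest pair: their values differed with an SD of 0.108 across probe sets, against 0.366 to 0.624 for other pairs of affected arrays of a site. They were averaged as 1 sample (humerus 5+6). That left 11 samples, 4 femoral and 7 humeral.

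All animals came from a Duroc x Pietrain cross, and no treatment, age or sex is given in the labels. Total RNA was hybridised to the Affymetrix Porcine Genome Array, which reads a transcript with 1 or more short-oligonucleotide probe sets. The design text speaks of affected and non-affected sib-pairs, but the labels do not tie an array to an animal, so the p-values reflect only how far these samples spread. The non-affected arrays, 5 of femur and 6 of humerus (4 and 6 samples after averaging a close femoral pair), serve below as the site difference without the lesion label.

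Growing articular cartilage is a layered tissue. Chondrocytes under the surface keep a matrix of type II collagen and aggrecan, and those near the bone enlarge, mineralise their matrix and give way to vessels, osteoclasts and osteoblasts. In osteochondrosis this turnover into bone fails in patches. A sample cut from such a joint surface can therefore hold cartilage, marrow-side tissue, vessels and blood cells in varying shares. In whole-tissue RNA, fewer cells of a type and less RNA per cell cannot be told apart.

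The tissue markers bore out cartilage at both sites. The 6 measured of 10 chondrocyte markers (COMP, ACAN, HAPLN1, COL2A1, COL11A1 and SOX9) averaged 11.7 to 12.3 in femoral and 11.1 to 12 in humeral samples on the deposited log2 scale, on which 4 is the floor. Several sets of markers of other cells were lower in the femur. The 4 osteoclast markers, of which 3 were called lower and CALCR higher, averaged 6.52 to 7.78 in femoral and 8.32 to 9.99 in humeral samples, and 4 of 7 macrophage markers averaged 4.93 to 7.04 and 7.6 to 9.99. The 4 endothelial markers averaged 4.56 to 6.8 and 7.04 to 8.45. Of the 5 neutrophil markers 4 were measured, at 4.16 to 6.07 and 4.89 to 10.3, and 3 of them had a femoral mean under 5. The 4 osteoblast markers overlapped, at 5.52 to 8.39 and 7.41 to 10. SOX10, the 1 measured Schwann cell marker, was called higher, at 6.94 to 7.22 against 5.81 to 6.65. Of the 3 measured adipocyte markers 2 were called higher and 1 lower, and of the 4 measured skeletal muscle markers 1 was called higher. Neither the 2 measured erythroid markers nor CD3E of T cells, at 4.58 to 5.17 against 4.0 to 4.71, were called.

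The arrays themselves also split by site. Array medians ran from 6.07 to 6.17 in the femur and from 6.23 to 6.3 in the humerus, and 3.28% to 4.15% against 0.883% to 1.71% of probe sets lay at the floor. The bioB controls, bacterial transcripts added at hybridisation and read by 9 probe sets, averaged 9.64 to 9.93 in all femoral arrays of the series and 8.03 to 8.49 in all humeral arrays. Site and whatever set these control levels cannot be told apart. Results are therefore given on the deposited scale and after quantile normalisation of the 11 samples. For the 101 genes plotted by status below, any direction that turns on centring arrays on the 27 hybridisation control probe sets is named. This centring lowers every femur minus humerus difference, so small positive differences of other genes, probe sets and lists can turn without being named. That centring moved the median difference of all probe sets from -0.0704 to -1.16, and quantile normalisation moved it to 0.0643. The 3'-5' differences of the actin and GAPDH control probe sets, a sign of RNA integrity, overlapped between sites, at 2.67 to 3.07 against 2.63 to 3.51 and at 0.674 to 0.852 against 0.539 to 1.06.

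**Figure D1:**
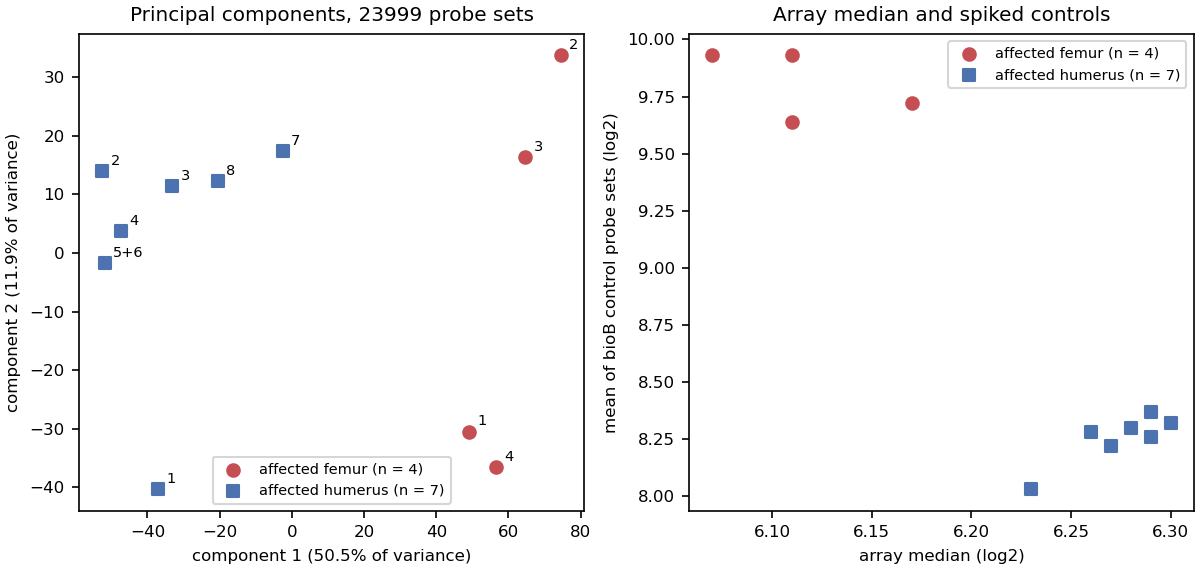
The left panel plots the first and second principal components of the 11 affected samples (circles femur, squares humerus, numbers are replicates), with femoral samples at 49.2 to 74.5 and humeral samples at -52.5 to -2.54 on the first component. The right panel plots each sample's median against the mean of its bioB control probe sets, both in log2 units, and the sites do not overlap on either axis.

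Femoral and humeral samples separated on the first principal component, which held 50.5% of the variance. Humerus 7 lay nearest to the femur on it, at -2.54. This sample recurs below as the humeral sample with the lowest levels of several bone and blood cell genes.

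Of 23999 probe sets, 6668 differed between affected femur and affected humerus at an adjusted p under 0.05 (27.8%). This threshold is what "called" means below, and differences are femur minus humerus in log2 units. Called lower in the femur were 4362 (18.2%) and higher 2306 (9.61%). On the quantile scale 6914 were called (28.8%) and the balance turned, with 2916 lower (12.2%) and 3998 higher (16.7%), so higher calls made up 34.6% of all calls on the deposited and 57.8% on the quantile scale. The 2306 higher calls all held on the quantile scale, 1446 lower calls did not, and no probe set was called in opposite directions. A total of 5222 probe sets had the same call on both scales (21.8%).

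Large differences lay mostly on the humeral side. Among called probe sets, 368 were more than 4-fold lower in the femur and 16 more than 4-fold higher. In 3946 probe sets (16.4%) the ranges of the sites did not overlap, with the femur above in 6.08% and below in 10.4% of all probe sets. Over 6765 genes, each read by its brightest probe set, 24.5% were called lower and 8.32% higher, with a median difference of -0.154. These shares are the background for the gene lists that follow, whose counts use the same brightest probe set. Values of single genes are from the gene's probe set with the smallest p.

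**Figure D2:**
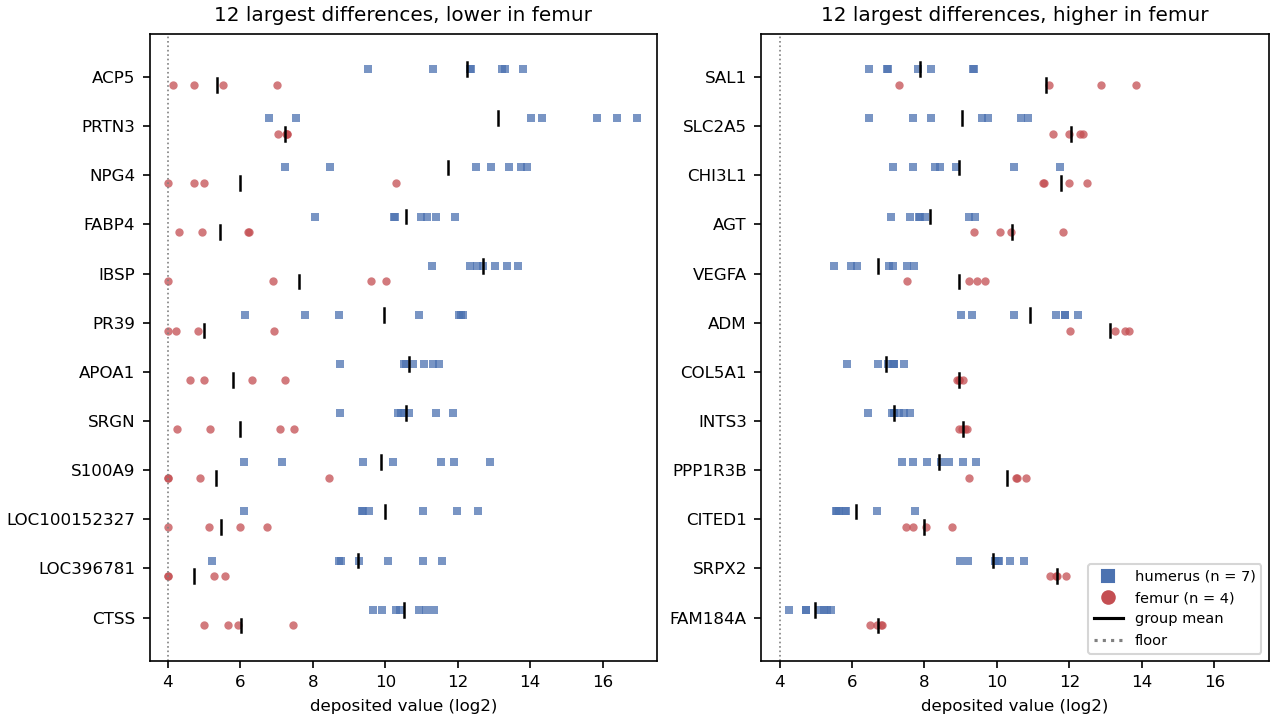
Deposited log2 values of the 12 genes with the largest differences in each direction, among genes with the same call on both scales; each point is a sample (squares humerus, n = 7; circles femur, n = 4), black bars are group means and the dotted line is the floor at 4. PRTN3 and the granule genes reach femoral levels in single humeral samples, whereas ACP5, CTSS, COL5A1 and INTS3 show no overlap.

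Genes of osteoclasts, the cells that dissolve mineralised cartilage and bone, gave the largest single difference. ACP5, the tartrate-resistant acid phosphatase that marks osteoclasts, measured 5.53, 4.15, 4.71 and 7.01 in the femoral samples, and ran from 9.51 over a median of 12.37 to 13.80 in the humerus. Every femoral value lay below every humeral one, and the difference was -6.92 ± 0.72 (SE, adjusted p = 0.000106), or 121-fold. ITGB3, the integrin beta chain by which osteoclasts grip bone, measured 4.0, 4.40, 4.0 and 5.11 in the femur and 5.93 to 10.15 in the humerus, with a median of 8.5. The difference was -4.02 ± 0.59 (adjusted p = 0.00049), a size that the floor under the femoral values limits.

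CTSK, the collagen-cleaving cathepsin K, was abundant at both sites and differed less. It measured 12.11, 11, 11.01 and 11.98 in the femur and 12.16 to 13.78 in the humerus, a difference of -1.48 ± 0.31 (adjusted p = 0.00378). In all, 5 of 7 measured osteoclast genes were called lower, with a median of -1.48, 1 was called higher and NFATC1, their transcription factor, was not called (-0.05). MMP9 (-1.19) and ATP6V0D2, a proton pump subunit (-2.40), made up the 5. The exception was CALCR, the calcitonin receptor, whose brighter probe set was higher by 0.81 (adjusted p = 0.00338) while its other probe set was called lower at -2.32. Without femur 2 or femur 4 the count of lower genes was 4.

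Proteases that cut cartilage matrix were lower in the femur as well. MMP3, stromelysin, measured 5.95, 4.48, 4.67 and 5.01 in the femur and 7.70 to 10.10 in the humerus around a median of 9.20. The sites did not overlap, the difference was -3.94 ± 0.39 (adjusted p = 8.64e-05), and all 4 of its probe sets were called lower. ADAMTS1, a secreted protease of the aggrecanase family, was lower by -3.18 ± 0.49 (adjusted p = 0.000616), with 4.92 to 7.58 in the femur and 8.21 to 10.55 in the humerus. Lysosomal CTSB, high everywhere, was lower by -0.94 ± 0.20.

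Of 18 measured proteases and inhibitors 10 were called lower and none higher, with a median of -1.04. The inhibitors TIMP1 (-0.52) and TIMP3 (-1.14) were among the 10. The quantile scale gave 8 lower and 1 higher, and leaving out 1 sample gave 8 to 11 lower. In non-affected cartilage the median of the list was -0.24, and MMP3 differed there by -0.36 (adjusted p = 0.71).

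Neutrophil granule genes were lower in the femur by large amounts, with wide spread among the humeral samples. PRTN3, the granule enzyme proteinase 3, measured 7.30, 7.27, 7.04 and 7.28 in the femur. In the humerus it measured 6.78 and 7.53 in humerus 7 and humerus 2, at the femoral level, and 14.03 to 16.95 in the other 5 samples. The difference of -5.90 ± 1.76 (adjusted p = 0.0246) thus rests on 5 of 7 humeral samples, and leaving out femur 2, 3 or 4 gave adjusted p-values of 0.0507 to 0.0546. S100A9, 1 chain of calprotectin, measured 8.44, 4.0, 4.0 and 4.88 in the femur and 6.09 to 12.88 in the humerus, with a median of 10.21. Its partner S100A8 was lower by -2.77 ± 0.72 (adjusted p = 0.0123).

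The antimicrobial peptides PR39 (-4.98 ± 1.10) and NPG4, a protegrin (-5.74 ± 1.43), belong to a family of near-identical genes, so that their probe sets cannot be assigned to single members with certainty. NPG4 measured 10.29 in femur 1, inside the humeral range of 7.22 to 13.90, and 4.0 to 5.0 in the other femoral samples. LTF, lactoferrin of the secondary granules, was at the floor in 3 femoral samples and at 7.10 in femur 1. It was lower by -3.56 ± 1.05 (adjusted p = 0.0232), and leaving out femur 2, 3 or 4 gave adjusted p-values up to 0.0641. All 6 measured neutrophil genes were called lower, with a median of -3.39, though none had separate ranges. Between 3 and 6 were called on leaving out 1 sample, the fewest without femur 2, femur 3 or femur 4.

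Macrophage genes were lower in the femur with less spread. AIF1, a calcium-binding protein of activated macrophages, measured 4.54, 4.0, 4.0 and 5.82 in the femur and 6.65 to 9.60 in the humerus, with a median of 8.70. The difference was -3.85 ± 0.50 (adjusted p = 0.000251). TYROBP, the signalling adaptor of myeloid receptors, was lower by -3.67 ± 0.54, FCER1G, the Fc receptor gamma chain, by -3.33 ± 0.49 and LAPTM5, a lysosomal protein of blood cells, by -3.59 ± 0.51. In each of these genes all femoral samples lay below all humeral ones.

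Of 10 measured macrophage genes 7 were called lower, all 7 without overlap, and the list median was -3.46. The exception in the other direction was the scavenger receptor MARCO, higher by 0.60 (adjusted p = 0.00585). Also among the largest differences were CTSS, the cathepsin of antigen-processing cells (-4.51 ± 0.42, adjusted p = 7.89e-05), and SRGN, the granule proteoglycan serglycin (-4.58 ± 0.62). CTSS measured 5.95, 5.66, 5.01 and 7.46 in the femur and 9.66 to 11.35 in the humerus, and all 3 of its probe sets were called lower. In non-affected cartilage the macrophage list had a median of -0.32.

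Antigen presentation genes followed the same order of sites. SLA-DRA, the alpha chain of the porcine class II molecule DR, measured 5.91, 4.31, 4.0 and 7.30 in the femur and 8.09 to 11.12 in the humerus, with a median of 10.08. It was lower by -4.47 ± 0.65 (adjusted p = 0.000452), and SLA-DQA1 by -3.84 ± 0.57. CD74, the class II chaperone, was lower by -2.24 ± 0.35. B2M, the light chain of class I, was lower by -2.26 ± 0.34 on this probe set, but 8 others gave -2.05 to 0.41, and 2 of these were called, both lower. Of 14 measured genes 10 were called lower and none higher, with a median of -1.68. Class II and class I genes are closely related copies, so members can share signal.

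Interferon-induced genes were lower in the femur for 8 of 16 and higher for none, with a median of -0.94. OAS1, an antiviral sensor of double-stranded RNA, measured 4.07, 4.0, 4.33 and 5.45 in the femur and 6.31 to 10 in the humerus. OAS1 was lower by -3.12 ± 0.59 (adjusted p = 0.00219), and the antiviral GTPase MX1 by -2.64 ± 0.52. GBP1, a guanylate-binding protein, was lower by -1.61 ± 0.21 on its best probe set, while its brightest probe set gave -0.06 and was not called.

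Among 26 cytokines and chemokines 12 were called lower and 1 higher, with a median of -0.75. CXCL12, a chemokine that holds marrow cells in place, measured 4.72, 4.0, 5.22 and 5.14 in the femur and 6.45 to 10.10 in the humerus, a difference of -4.26 ± 0.58 (adjusted p = 0.000325). CXCL14 was lower by -3.79 ± 0.61, the monocyte attractant CCL2 by -2.48 ± 0.46 and IL15, a growth factor of natural killer and T cells, by -1.68 ± 0.24. The 1 higher gene was MIF (0.60, adjusted p = 0.00245). CCL2 had 1 low femoral sample, femur 2 at 4.01, against 5.71 to 5.99 in the others.

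Lymphocyte genes were called lower in 3 of 10 and higher in 1, close to the background of all genes. JCHAIN, which joins antibody polymers in plasma cells, was lower by -2.80 ± 0.55 (adjusted p = 0.00271). LOC396781, listed by RefSeq with the synonym IGHG for an immunoglobulin heavy chain, measured 4.0, 4.0, 5.58 and 5.28 in the femur and 5.23 to 11.57 in the humerus. It was lower by -4.52 ± 0.91 (adjusted p = 0.00307), against 0.54 in non-affected cartilage.

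**Figure D3:**
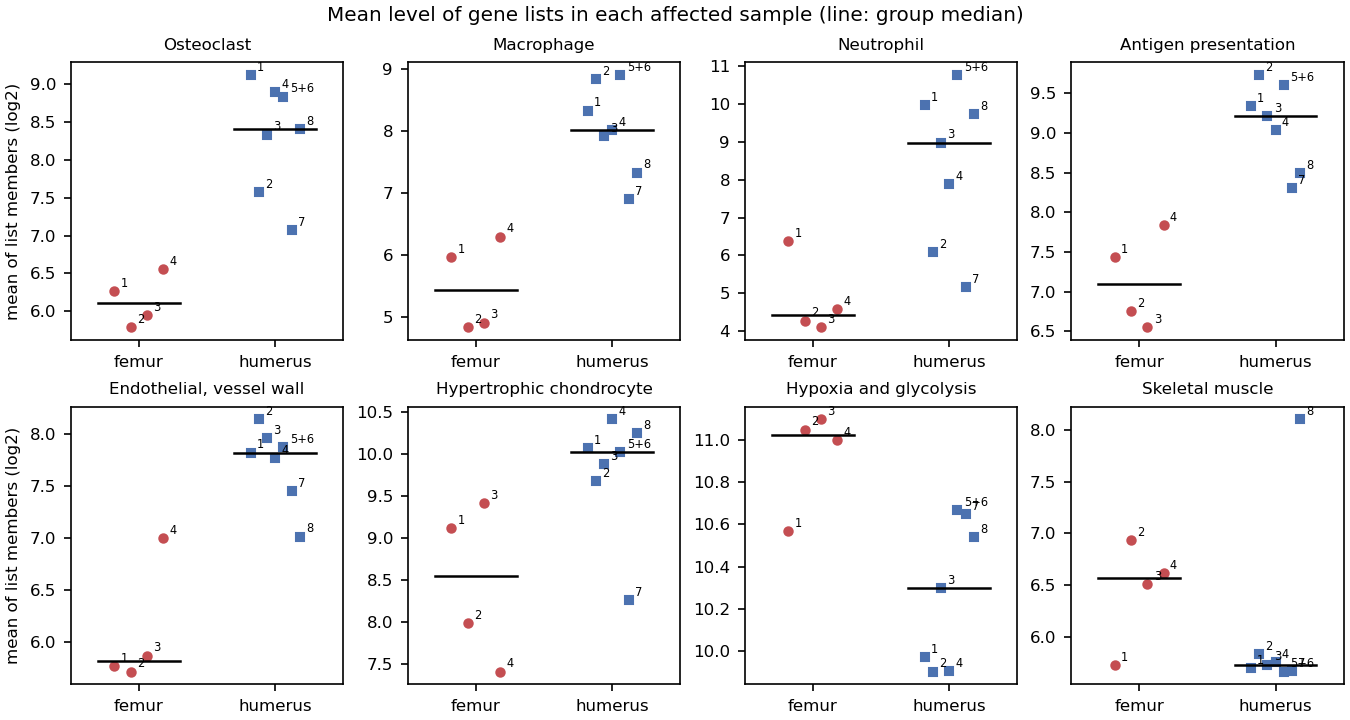
Mean log2 level of 8 gene lists in each affected sample, with the replicate number beside each point (circles femur, squares humerus) and a line at the group median. Osteoclast, macrophage, antigen presentation and vessel genes separate the sites, humerus 7 and humerus 2 are low for neutrophil genes, and humerus 8 stands alone at 8.10 for skeletal muscle genes.

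Vessel genes were lower in the femur, with femur 4 nearest to the humerus. CDH5, the cadherin of endothelial junctions, measured 4.49, 4.0, 4.41 and 7.14 in the femur and 8.21 to 9.65 in the humerus, a difference of -4.07 ± 0.48 (adjusted p = 0.000147). VWF, von Willebrand factor, was at the floor in femur 1, 2 and 3 and at 5.80 in femur 4, against 6.62 to 8.60 in the humerus. It was lower by -3.31 ± 0.41, but 2 other probe sets gave 0.06 and -0.24 and were not called. TEK, the angiopoietin receptor, was lower by -3.07 ± 0.42, while its 2 other probe sets gave 0.19 and -0.06 and were not called. CNN1, calponin of smooth muscle, was lower by -3.48 ± 0.48.

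Of 16 endothelial and vessel wall genes 9 were called lower, with a median of -0.87, and ESAM was called higher (0.48, adjusted p = 0.0312). Leaving out 1 sample gave 7 to 9 lower, and the ESAM call was lost without any 1 of 7 samples. The non-affected median was -0.81. VCAM1, an adhesion molecule of activated endothelium and of synovial cells, measured 7.06, 7.76, 6.84 and 8.09 in the femur and 10.22 to 12.41 in the humerus. Its difference of -4.09 ± 0.39 (adjusted p = 7.89e-05) compared with -1.12 (adjusted p = 0.13) in non-affected cartilage.

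Fat-related genes went both ways. FABP4, the fatty acid carrier of adipocytes, macrophages and capillary endothelium, measured 4.31, 6.20, 4.95 and 6.25 in the femur and 8.06 to 11.92 in the humerus, a difference of -5.14 ± 0.61 (adjusted p = 0.000147). APOA1, the main protein of high-density lipoprotein, was lower by -4.85 ± 0.53 and CFD, adipsin, by -2.75 ± 0.46. LEP, leptin, was higher by 0.99 ± 0.16 (adjusted p = 0.000841) and ADIPOQ, adiponectin, by 0.43 ± 0.12. Both directions held on the quantile scale, and both turned with centring on the hybridisation controls (-0.10 and -0.66). Leaving out femur 3 ended the call of ADIPOQ (adjusted p = 0.0601). Of 10 adipocyte genes 4 were called lower and 2 higher, with 2 lower without humerus 3, humerus 4, humerus 8 or femur 4.

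Fibrous matrix genes split between members. LUM, lumican, a collagen-organising proteoglycan, measured 7.61, 4.51, 5.87 and 9.06 in the femur and 8.97 to 11.93 in the humerus, and was lower by -3.86 ± 0.73 (adjusted p = 0.0022). POSTN, periostin of the periosteum and ligaments, was lower by -3.08 ± 0.60 and MFAP5, a microfibril protein, by -2.72 ± 0.46. VCAN, the large proteoglycan versican, was lower by -2.01 ± 0.33, although 1 of its 5 probe sets was called higher (0.41). COL5A1, a chain of the type V collagen that seeds fibrils, went the other way. It measured 9.05, 8.89, 8.95 and 8.96 in the femur and 5.85 to 7.43 in the humerus, was higher by 2.03 ± 0.24 (adjusted p = 0.000147), and all 6 of its probe sets were called higher. The fibrous list thus had 3 of 13 called lower, 1 higher and a median of -0.07. Its share called in either direction, 30.8%, was near the 32.9% of all genes.

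Of the small leucine-rich proteoglycans other than LUM none of 4 was called on the deposited scale. BGN, biglycan, differed by 0.19 ± 0.10 (adjusted p = 0.17), was called higher on the quantile scale (0.49) and stood at -0.90 on centring by hybridisation controls. ASPN, asporin, differed by -0.82 ± 0.51 (adjusted p = 0.25) in affected and by -2.84 in non-affected cartilage (adjusted p = 0.0015).

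Some genes of mineralising cartilage and bone were lower in the femur, where samples differed widely. IBSP, bone sialoprotein, measured 10.02, 4.0, 9.60 and 6.91 in the femur and 11.30 to 13.66 in the humerus. All femoral samples lay below the humerus, femur 2 at the floor, and the difference was -5.08 ± 0.89 (adjusted p = 0.00133), beside -6.10 in non-affected cartilage. ALPL, the alkaline phosphatase that frees phosphate for mineral, measured 9.82, 4.64, 10.49 and 4.39 in the femur, and 7.97 in humerus 7 against 11.06 to 12.55 in the other humeral samples. It was lower by -3.89 ± 1.16 (adjusted p = 0.024), and leaving out femur 2 or femur 4 gave adjusted p-values of 0.0821 and 0.0843.

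PTH1R, the receptor through which parathyroid hormone-related protein slows hypertrophy, was lower by -2.17 ± 0.44 (adjusted p = 0.00324), and MMP13, collagenase 3 of hypertrophic cells, by -1.43 ± 0.30, with its other probe set at 0.14 and not called. COL10A1, type X collagen of hypertrophic chondrocytes, had a femoral mean of 7.32 ± 3.37 (SD, n = 4), a humeral mean of 11.07 ± 2.66 (SD, n = 7) and no call (-3.75, adjusted p = 0.0774). BGLAP, osteocalcin, differed by -3.27 ± 1.24 (adjusted p = 0.0653), and was called without femur 1 (adjusted p = 0.0207) or without humerus 7 (adjusted p = 0.00927). Of 10 hypertrophic genes 3 were called lower and none higher, with a median of -1.22. Without humerus 7 the count was 6 and without femur 3 it was 5. The lower count fell to 2 without femur 2 or femur 4, and without femur 4 there were also 2 higher. In the bone list of 7 genes IBSP and DLX5, an osteoblast homeobox factor (-0.70 ± 0.23, adjusted p = 0.0389), were called lower. The shares called lower in these lists, 30% and 28.6%, stood beside 24.5% of all genes. The DLX5 call was lost on the quantile scale (adjusted p = 0.078) and without any 1 of femur 2, femur 3, humerus 3, humerus 4 or humerus 8.

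Genes of low oxygen and glucose use were higher in the femur on the deposited and quantile scales. SLC2A1, the main glucose transporter, measured 11.58, 12.39, 12.29 and 12.23 in the femur and 9.61 to 11.18 in the humerus, with a median of 10.85. It was higher by 1.56 ± 0.29 (adjusted p = 0.0018), with no overlap, against 0.10 in non-affected cartilage. ADM, the vasodilator peptide adrenomedullin, was higher by 2.20 ± 0.60 (adjusted p = 0.0163), with femur 1 at 12.01 inside the humeral range of 9.0 to 12.24. VEGFA, the endothelial growth factor, measured 7.52, 9.22, 9.66 and 9.45 against 5.51 to 7.71 and was higher by 2.25 ± 0.47, but its 3 other probe sets (-0.15, 0.16 and 1.68) were not called.

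KDM3A, a histone demethylase induced by low oxygen, was higher by 1.17 ± 0.17 (adjusted p = 0.000492) and P4HA2, a collagen prolyl hydroxylase, by 1.28 ± 0.22. CA9, carbonic anhydrase 9, was higher by 0.64 ± 0.11 on a dim probe set, and 2 brighter ones gave 1.24 and 1.29 without a call. Of 22 measured genes 9 were called higher, none lower and 20 had positive differences, with a median of 0.43. Quantile normalisation gave 13 higher and a median of 0.55, and centring on the hybridisation controls turned the list to 14 lower and a median of -0.66. Between 6 and 10 were called higher on leaving out 1 sample, the fewest without humerus 2, humerus 3, femur 3 or femur 4. Femur 1 was the lowest femoral sample for the list mean, at 10.57, below humerus 5+6 and 7 at 10.67 and 10.65.

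The fructose carrier SLC2A5 had the largest difference among named genes whose femoral values all lay above the humerus. It measured 11.56, 12.38, 12 and 12.28 in the femur and 6.46 to 10.87 in the humerus, with a median of 9.58, and was higher by 3.02 ± 0.70 (adjusted p = 0.00655), about 8.14-fold. PPP1R3B, which directs a phosphatase to glycogen, was higher by 1.88 ± 0.38 (adjusted p = 0.00331). In non-affected cartilage SLC2A5 differed by 1.01 (adjusted p = 0.35) and PPP1R3B by 1.0 (adjusted p = 0.16).

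SAL1, a salivary lipocalin, had the largest higher difference of all named genes but uneven samples. It measured 13.85, 12.86, 11.43 and 7.30 in the femur and 6.47 to 9.37 in the humerus, and was higher by 3.48 ± 0.99 (adjusted p = 0.0188). Leaving out femur 1 or femur 2 gave adjusted p-values of 0.0661 and 0.0614. It was also higher in non-affected femur, by 4.95 (adjusted p = 0.0012).

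Some cartilage genes were higher in the femur on the deposited and quantile scales. SOX9, the transcription factor that drives chondrocyte fate, measured 10.33, 9.34, 10.66 and 9.81 in the femur and 7.40 to 8.99 in the humerus, around a median of 8.57. The sites did not overlap and the difference was 1.63 ± 0.30 (adjusted p = 0.00186), against 0.64 (adjusted p = 0.12) in non-affected cartilage. On centring by hybridisation controls it stood at 0.54 and was not called (adjusted p = 0.114). CHI3L1, a secreted glycoprotein of cartilage, was higher by 2.81 ± 0.71 (adjusted p = 0.0105), with 11.27 to 12.49 in the femur and 7.14 to 11.75 in the humerus. COL2A1 differed by 0.65 ± 0.32 (adjusted p = 0.148) and ACAN, aggrecan, by -0.28 ± 0.13 (adjusted p = 0.116), neither called. ACAN stood at 0.025 on the quantile scale, and without humerus 2 it was called lower (-0.36, adjusted p = 0.0174).

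COMP, a pentameric matrix glycoprotein, was higher by 0.25 ± 0.08 (adjusted p = 0.0386) and CILP, of the middle cartilage zone, by 0.55 ± 0.17 (adjusted p = 0.0312), with its other probe set at 1.62. Leaving out any 1 of 8 samples ended the COMP call (humerus 1, 2, 3, 4 and 5+6, and femur 2, 3 and 4, adjusted p = 0.0503 to 0.112). On the probe set of 0.55, the dimmer of the pair, CILP lost its call without humerus 5+6, humerus 8, femur 3 or femur 4. Of 9 measured cartilage genes 4 were called higher and none lower, with a median of 0.25. The 4 became 2 without any 1 of humerus 1, humerus 4, femur 2, femur 3 or femur 4, and 1 gene was called lower without humerus 2 or femur 3. Centring on the hybridisation controls gave 1 higher, 5 lower and a median of -0.84, and COL2A1, COMP and CILP then stood at -0.44, -0.84 and -0.54. That CILP value is from the dimmer probe set, at 6.42 in the femur and 5.86 in the humerus. The brighter one, at 13.29 and 11.67, is used in the list. Its difference of 1.62 stays above 0, because the centring shifts every difference equally.

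**Figure D4:**
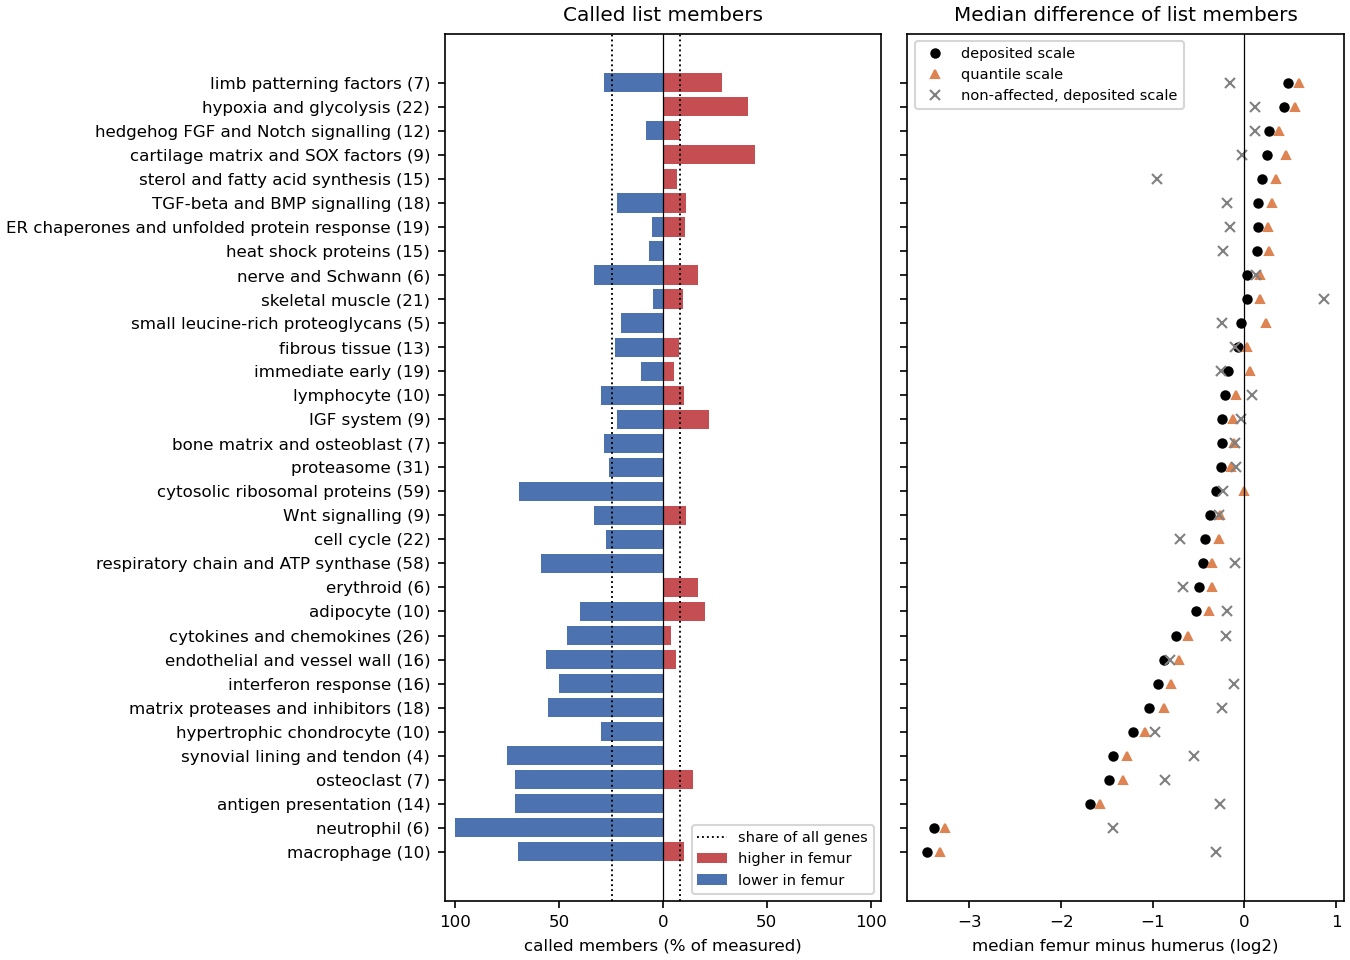
Left, the share of measured members of each list (number in brackets) called higher (right of 0) or lower (left of 0) in affected femur, with dotted lines at the shares over all genes, 8.32% and 24.5%. Right, the median femur minus humerus difference of each list in log2 units on the deposited scale (circles), on the quantile scale (triangles) and in non-affected cartilage (crosses); macrophage, neutrophil and antigen presentation lists lie farthest below 0 in affected cartilage.

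Growth factor genes differed member by member. TGFB1, a growth factor that sustains matrix production, measured 9.06, 9.58, 9.06 and 9.07 in the femur and 6.92 to 8.54 in the humerus. It was higher by 1.21 ± 0.27 (adjusted p = 0.00511), with 0.0 in non-affected cartilage, whereas TGFB2 was lower by -1.14 ± 0.18 (adjusted p = 0.000783). Of the 3 other TGFB2 probe sets 1 was called lower (-0.65) and the rest, at 0.38 and -0.23, were not called. IGFBP5, which binds insulin-like growth factors in matrix, was higher by 1.47 ± 0.22 (adjusted p = 0.000552) and IGFBP2 lower by -2.61 ± 0.41. IGF2 was higher by 0.71 ± 0.13 on its best probe set, with 1 of the 12 others also called higher and the rest not called. The best probe set is dim, at 6.31 in the femur and 5.6 in the humerus, and stood at -0.38 on centring by hybridisation controls. The other called one is the brightest, at 12.16 and 11, and was higher by 1.17. Under that centring, which shifts every difference equally, it stays just above 0.

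SFRP1, a secreted Wnt antagonist, was higher by 1.51 ± 0.35 (adjusted p = 0.00694) on 1 probe set and by 1.33 on the other. FGF18, a growth factor for chondrocytes, was higher by 1.10 ± 0.26 (adjusted p = 0.00733). On centring by hybridisation controls TGFB1, IGFBP5, SFRP1 and FGF18 stood at 0.12, 0.37, 0.42 and 0.0068 and lost their calls (adjusted p = 0.135 to 0.98). CTNNB1, beta-catenin of the Wnt pathway, was lower by -0.62 ± 0.12. The TGF-beta and BMP list had 2 of 18 called higher and 4 lower, and the Wnt list 1 of 9 higher and 3 lower. The shares called in either direction, 33.3% and 44.4%, stood beside 32.9% of all genes. On the quantile scale the counts became 4 higher and 1 lower, and 1 higher and 1 lower. On leaving out 1 sample the lower counts of these lists fell to as few as 1, the TGF-beta list without humerus 4 or femur 4 and the Wnt list without femur 2 or femur 3.

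AGT, angiotensinogen, measured 10.40, 10.08, 9.36 and 11.83 in the femur and 7.09 to 9.39 in the humerus and was higher by 2.27 ± 0.48 (adjusted p = 0.00403). CITED1, a transcriptional coactivator, was higher by 1.87 ± 0.39 and SRPX2, a secreted sushi-repeat protein, by 1.76 ± 0.28. INTS3, a subunit of the Integrator complex, was higher by 1.91 ± 0.19 on 1 probe set with no call on the other 2 (0.33 and -0.25). FAM184A was higher by 1.74 ± 0.20 (adjusted p = 0.000139), with 6.5 to 6.82 in the femur and 4.25 to 5.43 in the humerus.

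Genes that give the fore and hind limb their identity were thinly covered. PITX1, TBX4, TBX5, HOXC9, HOXC10, HOXA11, HOXA13 and HOXD9 have no probe set with a single symbol in the annotation used here. Of 7 measured patterning genes 2 were called higher and 2 lower. HOXD12, a homeobox gene of the distal limb, measured 4.79, 6.46, 6.24 and 7.13 in the femur and 7.19 to 8.19 in the humerus and was lower by -1.40 ± 0.35 (adjusted p = 0.0109), while its other probe set gave 0.25. HOXB7 was lower by -0.77 ± 0.14 (adjusted p = 0.00186). MEIS2, a HOX cofactor of the proximal limb, was higher by 1.0 ± 0.16 (adjusted p = 0.000841) and by 1.72 on its other probe set. Its relative MEIS1 was higher by 0.89 ± 0.30 (adjusted p = 0.044), a call that leaving out 9 of the 11 samples in turn ended. On centring by hybridisation controls the MEIS2 probe set of 1.0 turned to -0.085 and MEIS1 to -0.20. The other MEIS2 probe set is brighter, at 7.92 in the femur and 6.2 in the humerus. Such centring shifts every difference equally, so that probe set, at 1.72, stays above 0.

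Housekeeping lists shifted by small amounts that depended on the scale. Of 59 cytosolic ribosomal protein genes 41 were called lower on the deposited scale and none higher, with a median of -0.31. On the quantile scale 4 were lower and 3 higher, with a median of -0.01. RPL17 measured 13.26 to 13.42 in the femur and 13.74 to 13.86 in the humerus, a difference of -0.50 ± 0.07 that became -0.20 by quantile normalisation, while its other probe set was called higher (0.90). RPL21 went from -0.53 ± 0.07 to -0.19. RPL23 had 1 probe set higher (1.23) and 2 lower (-1.34 and -0.40).

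The lower levels of respiratory chain and ATP synthase genes depended less on the scale. On the deposited scale 34 of 58 were called lower and none higher, with all femoral samples below the humerus in 32 of the 58 and a median of -0.45. After quantile normalisation 23 were lower and the median was -0.35. SDHD, a subunit of complex II, measured 10.65, 10.09, 10.36 and 10.49 in the femur and 11.10 to 11.34 in the humerus, a difference of -0.80 ± 0.11 (adjusted p = 0.000394). NDUFB3 of complex I was lower by -0.95 ± 0.15. In non-affected cartilage 10 of the 58 were called lower and 5 higher, with a median of -0.10.

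Proteasome genes were called lower in 8 of 31 and higher in none, near the background share, with 13 lower without humerus 1 and 4 without humerus 3, humerus 5+6, femur 1 or femur 3. PSMA4, a core subunit, was lower by -1.12 ± 0.13 (adjusted p = 0.000123). Of 22 cell cycle genes 6 were called lower (27.3%, near the 24.5% of all genes) and none higher, with 20 negative differences. The list median was -0.43, and in non-affected cartilage 11 were called lower with a median of -0.70. PCNA, the replication clamp, was lower by -0.93 ± 0.20 (adjusted p = 0.00469), and MCM5 of the replicative helicase by -0.68 ± 0.14 on a dim probe set with no call on 2 others. Quantile normalisation left 3 lower and 1 higher. Without femur 2 or femur 4 the lower count was 2, and without humerus 4 or humerus 5+6 it was 3.

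Among immediate early genes, which respond to signals and to handling within minutes, 2 of 19 were called lower and 1 higher, with 5 lower without femur 3, 4 lower without femur 1 and 3 higher without femur 4. FOS was lower by -0.97 ± 0.23 (adjusted p = 0.00732), with 11.50 to 12.98 in the femur and 13.15 to 13.63 in the humerus. DUSP6, a phosphatase that limits ERK signalling, was at the floor in 3 femoral samples and at 4.09 in femur 4, against 6.06 to 7.90 in the humerus. Its difference was -3.02 ± 0.30 (adjusted p = 8.48e-05), and the other DUSP6 probe set stood at -4.36.

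Skeletal muscle genes differed between samples within each site. The list mean was 5.66 to 5.83 in 6 humeral samples and 8.10 in humerus 8, and 5.72 to 6.94 in the femur. With all samples 2 of 21 genes were called higher and 1 lower, and without humerus 8 the count of higher genes was 8. In non-affected cartilage 5 were called higher and none lower, with a median of 0.87 beside 0.028 in affected cartilage. MYH2, a fast myosin, was higher by 1.67 ± 0.50 (adjusted p = 0.0234), and leaving out femur 2 or femur 3 gave adjusted p-values of 0.0695 and 0.0693. The call was also lost with all 4 groups in 1 fit (adjusted p = 0.0583) and on centring by hybridisation controls (0.58, adjusted p = 0.243). ATP2A1, the calcium pump of fast fibres, was higher by 1.09 ± 0.17 (adjusted p = 0.000712), and stood at -0.0035 on centring by hybridisation controls. TPM2, a tropomyosin also found in smooth muscle, was lower by -1.71 ± 0.27. The erythroid list had 1 of 6 genes called, KLF1, higher by 0.42, and this call was lost on leaving out 9 of the 11 samples in turn.

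Most of the remaining lists held few calls, beside 32.9% of all genes called in either direction. Of 19 chaperones and stress genes of the endoplasmic reticulum 2 were called higher and 1 lower, and of 15 heat shock proteins 1 was called lower. Among 15 genes of sterol and fatty acid synthesis 1 was called higher, with a median of 0.19 against -0.95 in non-affected cartilage. That median ran from -0.19 without femur 2 to 0.38 without femur 4. Hedgehog, FGF and Notch genes gave 1 higher and 1 lower call in 12. Of 4 synovial lining and tendon genes 3 were called lower, VCAM1 among them, and of 6 nerve and Schwann cell genes 2 were lower and 1 higher. The shares called in these short lists, 75% and 50%, were above that of all genes.

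The last comparison set the site difference in affected cartilage beside that in non-affected cartilage, which was measured on other arrays. In a fit of all 4 groups, 6868 probe sets were called between sites in non-affected samples (28.6%), 2191 higher (9.13%) and 4677 lower (19.5%) in the femur. That fit takes its variance from all 4 groups, the affected ones included, whereas the 6668 affected calls come from the affected samples alone. With all 4 groups in 1 fit the affected comparison gave 7239 calls, so the call counts and shared calls given here rest on unlike fits. Of the 6668 affected calls, 90.7% had the same sign in non-affected cartilage, against 72.6% of all probe sets. A total of 3233 were called in the same direction in both, which is 48.5% of the affected and 47.1% of the non-affected calls and 13.5% of all probe sets, and 21 in opposite directions.

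**Figure D5:**
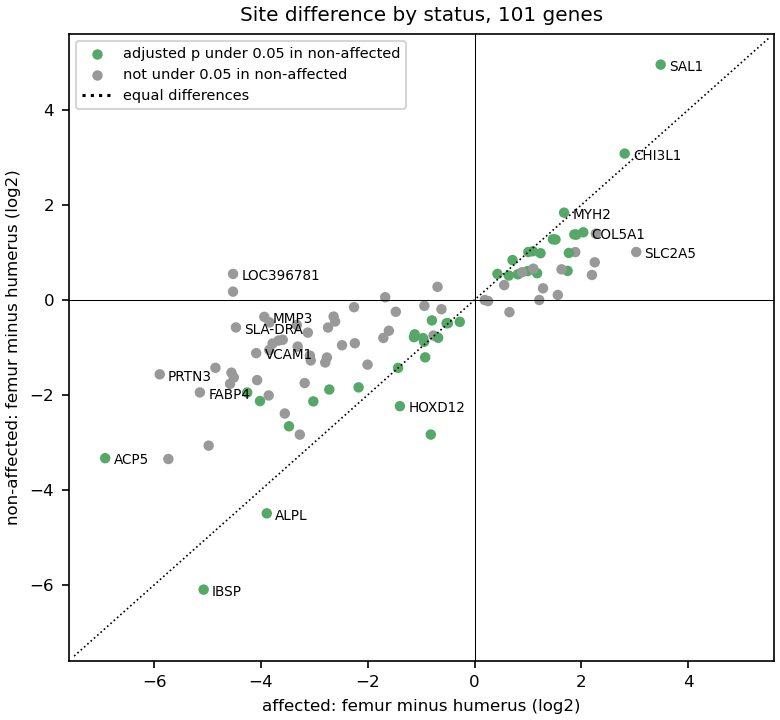
Site difference (femur minus humerus, log2) of 101 genes described here in affected cartilage (horizontal axis) against non-affected cartilage (vertical axis); green points had an adjusted p under 0.05 in non-affected cartilage, and the dotted line marks equal differences. Blood cell and protease genes such as PRTN3, MMP3 and SLA-DRA lie nearer to 0 on the vertical axis, while IBSP, ALPL, COL5A1 and SAL1 lie near or beyond the line.

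The difference between these site differences, tested as an interaction, was called for 62 probe sets (0.258%), 10 upward (0.0417%) and 52 downward (0.217%), and for 53 on the quantile scale (0.221%). None of the 101 genes in the plot of site differences by status was among them. For MMP3, at -3.94 against -0.36, the interaction had an adjusted p of 0.084, for VCAM1 of 0.11 and for FAM184A of 0.10. The smaller non-affected values of the named myeloid and protease genes were therefore not called as different from the affected ones. Of the 368 probe sets more than 4-fold lower in affected femur, 128 were also called lower in non-affected femur, and of the 16 more than 4-fold higher, 5 were.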

How the data were processed

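The authors deposited 1 table of log2 values per probe set and array. Per the submitters' processing notes GCOS 1.1.1 was used; the sources used here do not name the normalisation. Values have a floor at 4 (16 on a linear scale). Values under 4.01 are counted as at the floor. The 124 control probe sets were left out and all 23999 others fitted, with no filter. Of these 10069 carry 1 gene symbol in the platform annotation, 198 several and 13732 none here.

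limma 3.58.1 in R 4.3.3 (lmFit, eBayes with a trend, two-sided) tested femur against humerus over the 11 affected samples, with Benjamini-Hochberg adjustment over all probe sets and a call at 0.05. The same fit was run after quantile normalisation. A second fit of 4 group means over all 21 samples gave the non-affected site difference and the interaction. The steps were tested on simulated data. Plots used matplotlib 3.10.9 in Python 3.11.15.

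Named genes have 1 symbol and are read by the probe set with the smallest p. They are the 12 largest differences per direction with the same call on both scales, members of each list with the smallest p-values (up to 4), 8 limb identity genes, and COL2A1, ACAN and SOX9. CALCR apart, list members named beyond these (MMP9, ATP6V0D2, NFATC1, TIMP1, TIMP3, MARCO, MIF, ESAM and COL10A1) and the genes of the closing section were chosen after their values were seen. Lists use a gene's brightest probe set and are described by counts and medians. The comparison and the lists were chosen with earlier results of these data known. Alternatives covered scaling, filters, the floor, the variance model, array weights, the samples in the fit, the close pair, probe sets per gene and leaving out each sample. No genome build is named in the sources used here, so no coordinates are given. The number of arrays limits the precision.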

Additional observations from a re-analysis of the deposited data

Results flagged for a closer look

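In 30 of 274 group sets of named genes, list means and array measures, 1 sample stood apart from the rest of its group by Dixon's test. Chance flags about 5% of groups where values are normally distributed. In the flagged DUSP6, VWF and LTF sets the other femoral values lay at the floor, so that share need not hold there. No cause was tested. Femur 4, humerus 2 and humerus 7 had 5 each.

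Humerus 7 was low for ALPL at 7.97 (next 11.06), MMP13 at 5.10 (next 6.33), APOA1 at 8.75 (next 10.51) and the hypertrophic list mean at 8.27 (next 9.68), and high for the limb patterning list mean at 8.24 (next 7.76). Humerus 2 was low for INTS3 at 6.43, BGN at 12.91, IGFBP5 at 7.47 and ATP2A1 at 5.17, and high for POSTN at 10.39. Humerus 8 was high for the skeletal muscle list mean at 8.10 (next 5.83) and low for the IGF list mean at 7.37. Humerus 1 was low for RPL17 at 13.74 and NDUFB3 at 9.82, humerus 3 was low for RPL21 at 13.41, and humerus 5+6 was high for GBP1 at 7.47.

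Femur 4 was high for CDH5 at 7.14 (next 4.49), VWF at 5.80 (the others at 4.0), the endothelial and vessel wall list mean at 7.0 (next 5.87), ATP2A1 at 7.24 and DUSP6 at 4.09. Femur 1 was high for NPG4 at 10.29 (next 5.0), LTF at 7.10 (the others at 4.0) and the erythroid list mean at 7.57. Femur 2 was low for CCL2 at 4.01 and the respiratory chain list mean at 9.68, and high for TGFB1 at 9.58. Femur 3 was low for CD74 at 4.0 and PRTN3 at 7.04, and high for ADIPOQ at 5.96.

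For other genes the site difference itself differed between affected and non-affected cartilage by limma's interaction test. The 62 interaction calls hold 31 probe sets with 1 symbol, for 30 genes, and 22 of the 31 have opposite signs in affected and non-affected cartilage. HAAO, an enzyme of tryptophan breakdown, averaged 5.35 in affected femur and 6.78 in affected humerus, a difference of -1.43, against 0.19 in non-affected cartilage (interaction -1.62, adjusted p = 0.00117). TNFSF13, the B cell factor APRIL, differed by -1.86 against 0.50 (interaction -2.37, adjusted p = 0.00789). GADD45A, a growth arrest gene, differed by -1.93 against 0.48 (interaction -2.41, adjusted p = 0.0244). IGFBP6, a binding protein with a preference for IGF2, was called on both of its probe sets, at -1.25 and -1.36 in affected and 1.45 and 1.08 in non-affected cartilage (interactions -2.70 and -2.44). FTL, the ferritin light chain, differed by -1.20 against 0.57 (interaction -1.77, adjusted p = 0.0448), and ACAA2, a mitochondrial enzyme of fatty acid oxidation, by -1.29 against 0.005 (interaction -1.29, adjusted p = 0.043). The ACAA2 interaction was not called on the quantile scale (adjusted p = 0.0511).

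Other genes were called for a site difference in non-affected cartilage that was near 0 in affected cartilage. CIT, citron kinase of cell division, differed by -0.005 in affected and 2.05 in non-affected cartilage (interaction -2.06, adjusted p = 0.000409), and NUP50, a nuclear pore protein, by -0.04 against -1.22 (interaction 1.17, adjusted p = 0.0187). The genes named here are a selection from the 30.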

How the results depend on the processing

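Of the 101 genes plotted by status, 96 were called, and 86 of these kept the call on leaving out each sample in turn. In all, 68 of the 101 kept direction and call in the 14 alternatives and the 11 leave-one-out fits together, wherever their probe set was fitted. Counts of calls moved with the scale. Quantile normalisation gave 3998 higher, and median centring 4369 higher and 2828 lower. Centring on the hybridisation controls, which shifts all values by site, gave 22845 calls (37 higher, 22808 lower) and 36 interaction calls, and turned CALCR to -0.28, BGN to -0.90, LEP to -0.10, ADIPOQ to -0.66, COMP to -0.84, COL2A1 to -0.44, CILP to -0.54, CA9 to -0.45, IGF2 to -0.38, MEIS2 to -0.085, MEIS1 to -0.20 and ATP2A1 to -0.0035. It also ended the calls of ADM, PPP1R3B, CITED1, SLC2A1, KDM3A, P4HA2 and RPL23, beside those named above. The turned values of CILP, CA9, IGF2 and MEIS2 are from dimmer probe sets. The brightest probe sets of these 4 genes differed by 1.62, 1.29, 1.17 and 1.72 on the deposited scale. Because this centring shifts every difference equally, they stay above 0. Quantile normalisation turned ACAN to 0.025. With 1 probe set per gene, and so fewer tested, there were 2392 calls, 612 higher and 1780 lower, and 38 interaction calls. Interaction calls numbered 35 without the lowest 30% of probe sets and 97 with arrays 5 and 6 as separate samples; the cause was not tested. Leaving out 1 sample gave 5524 to 7264 calls, 1746 to 2451 higher and 3688 to 4813 lower. Interaction calls then ranged from 28 without femur 3 to 103 without femur 1, with 35 without humerus 4, 38 without humerus 2 and 41 without femur 2. No paired analysis was possible because the labels give no replicate number that both sites share. Differences of genes at the floor are limited by it.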
